A study of Rattus norvegicus with 8 samples.

Results

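The genes described here are 41 rat genes of fatty acid oxidation and of the PPARα program, chosen by name. They were chosen with earlier results of these data known. Shares set against all genes therefore describe the list and are not an independent test of it. They comprise transcriptional regulators, enzymes that activate fatty acids, the carnitine shuttle, the mitochondrial and peroxisomal β-oxidation enzymes, the CYP4A ω-hydroxylases, a ketone body enzyme and other targets of PPARα. A gene was measured through a probe set whose platform annotation names that symbol alone, and where there were several the brightest over the 8 arrays was taken. That rule gave 38 of the 41 a probe set, among 18166 genes with one. Of the 38, 36 had a mean log2 level of at least 5 and were tested among 8690 genes, while Acot1 and Abcd2 lay under that minimum. Cyp4a2, Cyp4a3 and Decr2 appear only in probe sets that name several symbols and were given no value.

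Long-chain fatty acids are activated to acyl-CoA thioesters, carried into mitochondria as carnitine esters, and shortened there by cycles of dehydrogenation, hydration, a further dehydrogenation and thiolysis. Very-long-chain and dicarboxylic acids, which arise from ω-hydroxylation by CYP4A enzymes in the endoplasmic reticulum, are shortened in peroxisomes. In the liver much of the acetyl-CoA becomes ketone bodies. PPARα, a nuclear receptor that binds fatty acids, pairs with RXR on direct repeats of AGGTCA separated by a single base and induces many of these genes, most strongly in fasting. The liver stores fat transiently in the first day or so of regeneration, and it also accumulates fat under chronic ethanol.

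Liver RNA of male Sprague-Dawley rats, an outbred strain, was hybridised to Affymetrix arrays, 1 array for each of 8 groups. Their ages are not known here. Rats were chronically fed ethanol or were pair-fed a carbohydrate control diet, abbreviated EtOH and CHO in the labels. They received AM21, a locked nucleic acid oligonucleotide antisense to the microRNA miR-21, or were left untreated. AM21 was injected intraperitoneally at 7.5 mg/kg 72 h ahead of partial hepatectomy (PHx) and once more directly after it. Tissue came from the same animals 24 h after removal of 70% of the liver and at the operation itself (0 h). The groups at 24 h were thus ethanol-fed with AM21, ethanol-fed untreated, pair-fed with AM21 and pair-fed untreated, and the same 4 were sampled at 0 h. Each array carried RNA pooled from 3 rats (AM21) or 4 rats (untreated), and differences between single rats cannot be seen. AM21 was given to other animals than those left untreated, so treatment and cohort cannot be told apart. No sham-operated rats and no oligonucleotide control were analysed here, so a change with PHx cannot be told apart from one due to surgery or the time elapsed.

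All values are log2 levels after RMA, and differences are log2 differences ± SE. They are not compared between genes, because probe sets differ in brightness. Levels on the arrays ran from 0.481 to 13.3, with array medians from 4.11 to 4.23. Hepatocyte markers (10 of 12 measured) averaged 11.01 to 11.12 at 24 h and 11.14 to 11.25 at 0 h, as the liver label implies, and none of the 6 measured lymphocyte markers had a mean level of 5. Pool values in this text are listed as ethanol-fed AM21, ethanol-fed untreated, pair-fed AM21, pair-fed untreated.

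The mature rat miR-21 strand, at which AM21 is directed, is given with its seed (bases 2 to 8) in capitals. It lies at chr10:71902653-71902674 on the minus strand in GRCr8, per RefSeq.
rno-miR-21-5p: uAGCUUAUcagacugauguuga

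Promoters of 35 of the 41 genes were found in the RefSeq table for GRCr8 and were searched on both strands for PPARα-type direct repeats in 250 bases ahead of the start and 50 after it. The strict repeat (AGGNCA, any base, AGGNCA) was held by 1 of the 35 (2.86%), against 0.415% of 33469 promoters of that length. For each of the 35 genes the first listed promoter was taken, whereas the shares set against them cover every promoter listed. With up to 2 mismatches to AGGTCA, any base, AGGTCA there were 6 (17.1%, against 3.77%), and the single half-site AGGTCA occurred in 10 (28.6%, against 16.2%). These sets overlap in part: Acadvl, Creb3l3 and Fabp1 are in both, whereas Crat, Etfa and Slc25a20 have a repeat with 2 mismatches and no half-site. The 10 include the paralogs Cyp4a2 and Cyp4a3, each with a half-site at -105. Shown are the 250 bases ahead of 3 starts, each 5′ to 3′ on the gene's strand. Capitals mark the repeat in Fabp1 and Acadvl and the half-sites in Acsm5. A half-site of Acadvl at -169 is thus left in lower case. Fabp1 (chr4:104749090-104749339, plus strand) holds the only strict repeat, on the opposite strand with its first base at -77. Acadvl (chr10:55236706-55236955, minus strand) has a repeat with 1 mismatch at -17. Acsm5 (chr1:183302259-183302508, plus strand), which differed with both PHx and diet, has half-sites on the opposite strand at -135 and -85. A match describes the letters and does not show binding.
Fabp1: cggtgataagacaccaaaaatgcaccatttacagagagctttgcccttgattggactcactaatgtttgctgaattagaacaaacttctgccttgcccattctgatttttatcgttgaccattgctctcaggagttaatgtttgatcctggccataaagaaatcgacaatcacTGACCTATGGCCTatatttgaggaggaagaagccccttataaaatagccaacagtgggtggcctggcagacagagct
Acadvl: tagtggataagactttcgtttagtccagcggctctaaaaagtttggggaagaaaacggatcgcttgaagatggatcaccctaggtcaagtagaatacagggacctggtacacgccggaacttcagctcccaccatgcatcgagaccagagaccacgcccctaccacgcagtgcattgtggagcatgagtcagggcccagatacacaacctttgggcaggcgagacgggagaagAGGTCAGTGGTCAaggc
Acsm5: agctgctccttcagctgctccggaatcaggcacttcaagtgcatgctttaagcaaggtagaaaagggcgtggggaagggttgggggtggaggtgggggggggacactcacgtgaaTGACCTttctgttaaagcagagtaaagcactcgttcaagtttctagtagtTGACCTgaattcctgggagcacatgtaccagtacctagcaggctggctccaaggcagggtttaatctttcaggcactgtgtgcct

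The first comparison asked how these genes changed within a day of PHx, using 4 matched pools. Of 36 tested genes 14 were lower at 24 h (38.9%) and 1 was higher (2.78%), by limma with Benjamini-Hochberg adjustment over all 8690 genes. Over all genes 12.8% were lower and 15.3% higher by the same test. The median difference of the 36 was -0.28, against 0.01 for all genes. In 22 genes the level was lower at 24 h in all 4 pools, a pattern of 22.8% of all genes, and in 12 the 24 h and 0 h arrays did not overlap with 24 h lower, as in 13.7% of all genes. In tissue RNA, fewer hepatocytes and less RNA per hepatocyte cannot be told apart.

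**Figure D1:**
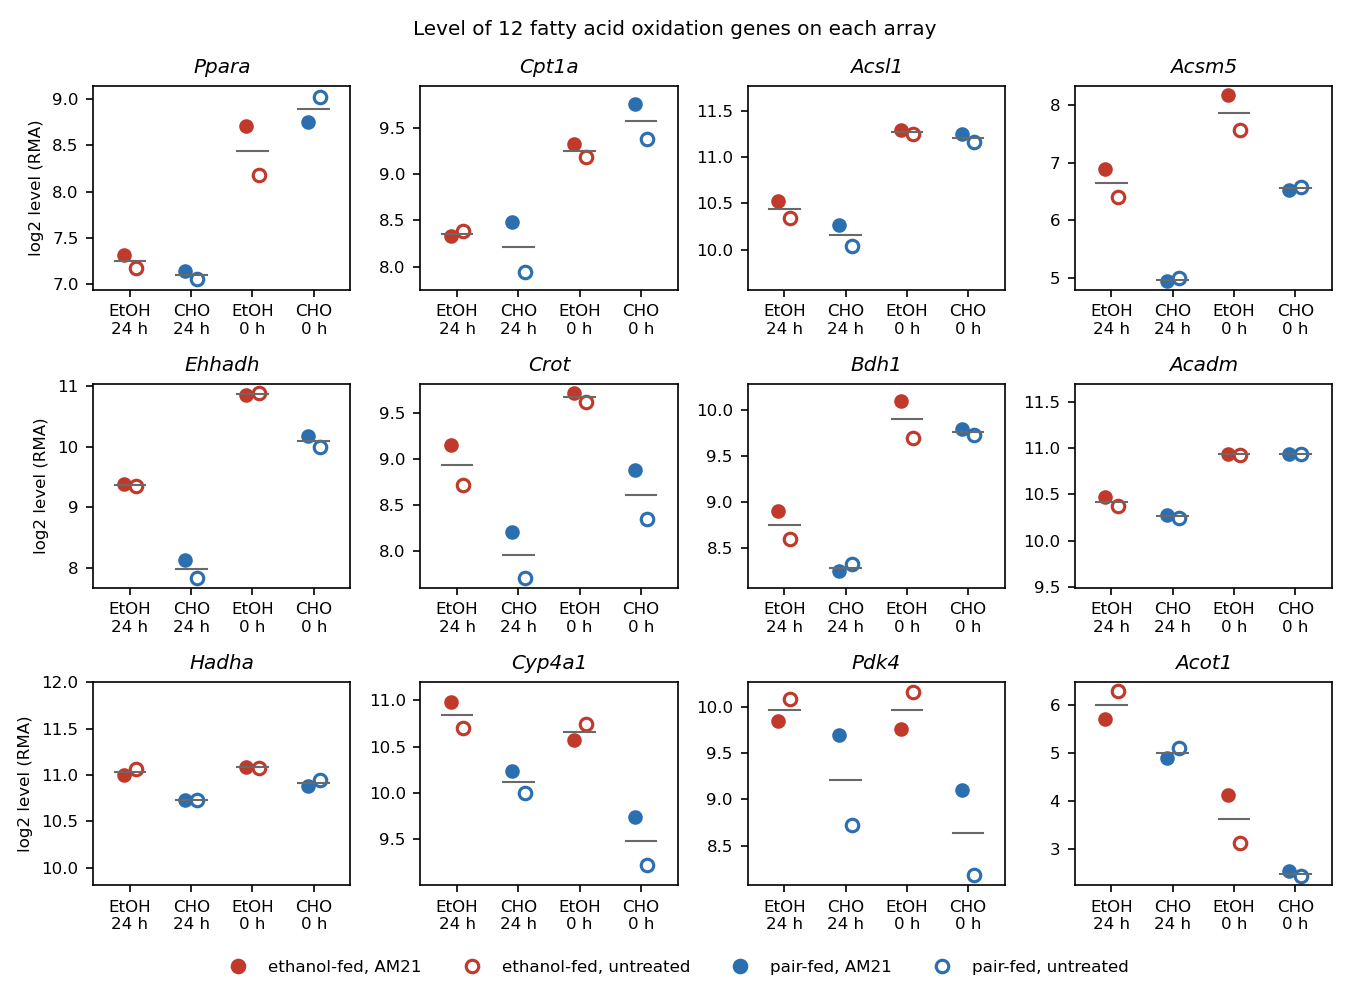
Log2 RMA level (y axis, each panel with its own range that does not start at 0) of 12 genes on each of the 8 arrays, grouped by diet (EtOH, ethanol-fed; CHO, pair-fed) and time after PHx. Filled points are AM21 pools, open points untreated pools, and lines are means of the 2 pools. Ppara, Cpt1a, Acsl1, Ehhadh, Bdh1 and Acadm are lower on every 24 h array than on any 0 h array, while Hadha and Cyp4a1 separate by diet.

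Among the regulators, Ppara, the receptor itself, read 7.32, 7.18, 7.14 and 7.06 at 24 h, against 8.70, 8.18, 8.76 and 9.02 at 0 h. Every 24 h array was below every 0 h array. The fitted difference was -1.49 ± 0.16 (limma adjusted p = 0.00194), a 2.81-fold lower level. Creb3l3, a hepatocyte transcription factor that acts with PPARα in fasting, differed by -0.31 ± 0.16, and the coactivator Ppargc1a by -0.22 ± 0.23, and neither passed.

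Among genes that activate or bind fatty acids, Acsm5, a medium-chain acyl-CoA synthetase, read 6.89, 6.40, 4.96 and 5.00 at 24 h and 8.16, 7.56, 6.53 and 6.58 at 0 h. The groups overlapped because both ethanol-fed pools lay above the pair-fed pools at each time, yet all 4 pools were lower at 24 h (-1.40 ± 0.11, limma adjusted p = 0.00125). Acsl1, the main long-chain acyl-CoA synthetase of the liver, read 10.52, 10.35, 10.27 and 10.04 at 24 h and 11.30, 11.25, 11.25 and 11.16 at 0 h; the times did not overlap (-0.94 ± 0.09, limma adjusted p = 0.00172). The one gene that rose was Acot2, a mitochondrial acyl-CoA thioesterase, by 0.40 ± 0.08 (limma adjusted p = 0.0132). Its levels were 6.91, 7.06, 6.63 and 6.52 at 24 h and 6.56, 6.61, 6.21 and 6.15 at 0 h, higher at 24 h within every pool. Its near-identical cytosolic paralog Acot1 was under the level minimum, with 5.71, 6.29, 4.90 and 5.11 at 24 h and 4.12, 3.13, 2.54 and 2.44 at 0 h. All 24 h arrays were higher, by 2.45 ± 0.23 in a fit with no level minimum (limma adjusted p = 0.00202 over 18166 genes). The 0 h levels are low, so the size of that difference is uncertain, and the probe sets of these paralogs may share signal. Acsf2, another acyl-CoA synthetase (-0.06 ± 0.18), and the fatty acid binding protein Fabp1 (-0.21 ± 0.08) did not pass.

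In the carnitine shuttle, Cpt1a, the rate-controlling outer-membrane acyltransferase, read 8.33, 8.38, 8.49 and 7.94 at 24 h and 9.32, 9.18, 9.76 and 9.38 at 0 h. The 2 sets did not overlap (-1.12 ± 0.12, limma adjusted p = 0.00211). Crot, which makes carnitine esters of the medium-chain products of peroxisomes, fell in every pool (-0.70 ± 0.09, limma adjusted p = 0.0036). Its levels were 9.15, 8.71, 8.21 and 7.70 at 24 h and 9.71, 9.62, 8.88 and 8.34 at 0 h, and the diets stood apart at each time. The inner-membrane enzyme Cpt2 (0.09 ± 0.17), the carrier Slc25a20 (-0.17 ± 0.12) and the acetyltransferase Crat (0.36 ± 0.15) did not pass.

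Of the 10 mitochondrial β-oxidation genes, 5 fell and none rose, and all 10 differences were below 0. Acadm, the medium-chain dehydrogenase, read 10.47, 10.37, 10.28 and 10.25 at 24 h and 10.94, 10.93, 10.94 and 10.94 at 0 h. The 0 h arrays hardly varied, and the difference was -0.59 ± 0.09 (limma adjusted p = 0.0044). Decr1, the dienoyl-CoA reductase needed for polyunsaturated acids (-0.75 ± 0.09), Acads, the short-chain dehydrogenase (-0.56 ± 0.09), Hadh, the short-chain hydroxyacyl-CoA dehydrogenase (-0.55 ± 0.10), and the thiolase Acaa2 (-0.52 ± 0.10) fell too. The very-long-chain and long-chain dehydrogenases Acadvl (-0.04 ± 0.10) and Acadl (-0.17 ± 0.08), the trifunctional protein subunits Hadha (-0.12 ± 0.08) and Hadhb (-0.06 ± 0.10), and the isomerase Eci1 (-0.13 ± 0.12) did not pass. The 95% interval for Acadvl ran from -0.28 to 0.20 and that for Hadha from -0.32 to 0.08. Etfa, Etfb and Etfdh, which pass electrons from the acyl-CoA dehydrogenases to the respiratory chain, differed by -0.23 ± 0.09, -0.24 ± 0.08 and -0.25 ± 0.08, each lower in all 4 pools, and did not pass.

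In peroxisomes, Ehhadh, the bifunctional β-oxidation enzyme and a classic PPARα target, had the largest difference of the 36. It read 9.38, 9.35, 8.13 and 7.83 at 24 h, against 10.85, 10.88, 10.18 and 10.00 at 0 h. Means were 8.67 ± 0.81 at 24 h and 10.48 ± 0.46 at 0 h (SD, n = 4 arrays each). The fitted difference was -1.81 ± 0.14 (limma adjusted p = 0.00132), a 3.50-fold lower level. The thiolase Acaa1a fell by 0.56 ± 0.09 on the log2 scale (fitted difference -0.56). The isomerase Eci2 (-0.11 ± 0.08), the transporter Abcd3 (-0.30 ± 0.09) and the peroxisome division factor Pex11a (-0.55 ± 0.19) did not pass. Abcd2, another peroxisomal transporter, had levels of 1.97 to 3.28 on the 8 arrays.

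Bdh1, which interconverts the ketone bodies acetoacetate and β-hydroxybutyrate, was lower at 24 h in every pool. It read 8.91, 8.60, 8.26 and 8.33 at 24 h and 10.10, 9.70, 9.79 and 9.72 at 0 h (-1.30 ± 0.10, limma adjusted p = 0.00132). The ω-hydroxylase Cyp4a1 did not pass and had a difference above 0, at 10.99, 10.70, 10.24 and 10.00 on 24 h arrays and 10.57, 10.75, 9.75 and 9.22 on 0 h arrays (0.41 ± 0.14, limma adjusted p = 0.0711). Cyp4a8 was called lower by a small margin (-0.44 ± 0.13, limma adjusted p = 0.0486). It had a 24 h mean of 4.81 ± 0.37 and a 0 h mean of 5.25 ± 0.45 (SD, n = 4 arrays each). Its mean over all 8 arrays was 5.03, so Cyp4a8 met the level minimum of 5 only through its 0 h arrays. Its count among the genes called lower depended on those arrays. Probe sets of CYP4A paralogs may share signal. Neither Vnn1, the pantetheinase that serves as a PPARα marker (-0.47 ± 0.20), nor Pdk4, the kinase that restrains pyruvate oxidation (0.28 ± 0.14), passed. PPARα targets were thus found among the genes that fell and among those that did not pass.

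Leaving out 1 pool at a time gave 14 or 15 calls, with 16.9% to 19.6% of all genes called in the same fits. Acot2 did not pass without the ethanol-fed AM21 pool (limma adjusted p = 0.0537) or the ethanol-fed untreated pool (0.0627), and Cyp4a8 did not pass without either of those (0.129 and 0.164) or without the pair-fed untreated pool (0.134). Within the AM21 cohort alone and within the untreated cohort alone 8 genes passed in each (8.35% and 8.93% of all genes did), and 7 of these were shared: Acsl1, Acsm5, Bdh1, Cpt1a, Decr1, Ehhadh and Ppara. With each array centred on its hepatocyte markers, which moved the median of all genes to 0.15, 13 were lower and 3 higher, and 36.8% of all genes passed. Neutrophil markers averaged 4.50 to 5.31 on 24 h arrays and 3.86 to 4.14 on 0 h arrays, with 2 of 6 tested and both higher (S100a8 by 3.09 ± 0.37). At 0 h S100a8 read 4.30 to 4.82 and S100a9 4.55 to 5.18, so both met the level minimum through their 24 h arrays. That both were higher was thus favoured by the filter and is not a test of neutrophil content. Adipocyte markers averaged 4.75 to 5.22 at 24 h and 4.40 to 4.48 at 0 h, with 1 of 4 tested and higher (Fabp4 by 1.67 ± 0.29). Both averages include markers under the level minimum, and those did not all rise. Among them, the neutrophil marker Elane and the adipocyte marker Adipoq were lower on average at 24 h. Endothelial markers averaged 7.25 to 7.66 at 24 h and 7.54 to 8.04 at 0 h; their median difference was -0.32, with 4 of 4 below 0 and 2 called lower. Stellate cell markers averaged 5.93 to 6.17 at 24 h and 6.09 to 6.33 at 0 h; their median difference was -0.32, with 3 of 6 called lower and 1 higher. These medians are as low as that of the 36 genes (-0.28), whereas hepatocyte markers had a median of -0.09 with 1 of 10 called lower. The part of these cell types in the results was not tested.

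**Figure D2:**
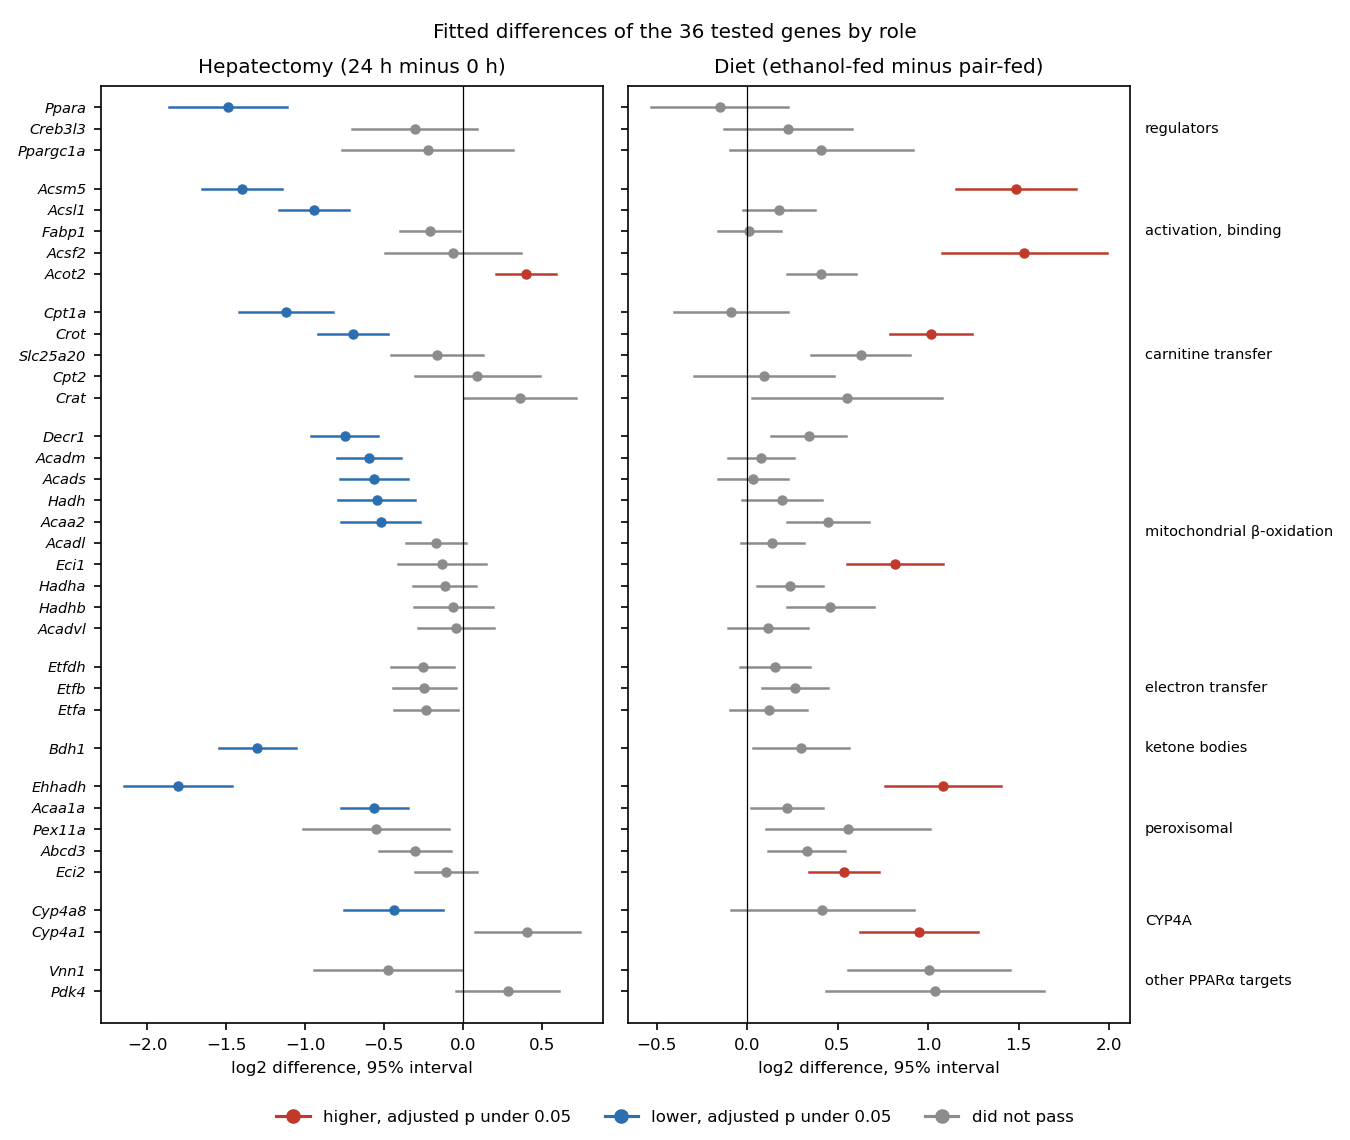
Fitted log2 difference with its 95% interval (x axis) for the 36 tested genes, ordered by role, for 24 h minus 0 h (left) and ethanol-fed minus pair-fed (right). Blue marks genes that were lower, red genes that were higher and grey genes that did not pass at an adjusted p of 0.05; 14 are blue on the left and 7 are red on the right.

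The second comparison asked what chronic ethanol changed, averaged over AM21 and time, with 4 arrays on each diet. Of the 36 genes 7 were higher in ethanol-fed livers (19.4%) and 0 were lower, by limma with Benjamini-Hochberg adjustment. Over all genes 0.38% were higher and 0.0806% lower. The median difference of the 36 was 0.33, against 0.01 for all genes. In 22 genes the ethanol-fed array was higher in all 4 matched pairs, against 15% of all genes, and in 10 the diets did not overlap with ethanol higher, against 3.48%. At an unadjusted p of 0.05, 21 genes passed (58.3%), against 15.4% of all genes.

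Ethanol-fed and pair-fed values are next listed as 24 h AM21, 24 h untreated, 0 h AM21, 0 h untreated. Acsf2 read 7.55, 7.47, 7.81 and 8.11 in ethanol-fed livers, against 6.66, 6.07, 6.23 and 5.86 in pair-fed livers. No array overlapped between diets (1.53 ± 0.20, limma adjusted p = 0.0261, 2.89-fold higher). Acsm5 was higher in ethanol-fed livers by 1.93, 1.40, 1.63 and 0.98 in the 4 pairs (1.49 ± 0.14, limma adjusted p = 0.0124). Both enzymes activate medium-chain acids, whereas Acsl1 (0.18 ± 0.09) and Fabp1 (0.01 ± 0.07) did not pass.

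Crot was higher by 0.94, 1.01, 0.84 and 1.28 in the pairs (1.02 ± 0.10, limma adjusted p = 0.0124). Cpt1a did not share this: the pair differences were -0.16, 0.44, -0.44 and -0.20 (-0.09 ± 0.14, limma adjusted p = 0.826). Slc25a20, the carrier, had no overlap between diets but did not pass (0.63 ± 0.12, limma adjusted p = 0.0721).

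Eci1 was the mitochondrial β-oxidation gene that passed, at 9.86, 10.06, 9.80 and 10.12 in ethanol-fed and 8.87, 9.15, 9.38 and 9.18 in pair-fed livers (0.82 ± 0.11, limma adjusted p = 0.0332). All 10 genes of that group had differences above 0, from 0.03 (Acads) to 0.82. Hadha (0.24 ± 0.08) and Hadhb (0.46 ± 0.10) did not overlap between diets and did not pass, and Acadm differed by 0.08 ± 0.08. Electron transfer genes differed by 0.12 to 0.27, and none passed.

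Among peroxisomal genes, Ehhadh was higher by 1.25, 1.52, 0.67 and 0.88 in the pairs (1.08 ± 0.14, limma adjusted p = 0.0261). Eci2, which isomerises enoyl-CoA, read 9.36, 9.58, 9.38 and 9.65 in ethanol-fed and 8.81, 8.93, 9.02 and 9.06 in pair-fed livers, close to the threshold (0.53 ± 0.08, limma adjusted p = 0.0494). Pex11a (0.56 ± 0.20), Abcd3 (0.33 ± 0.09) and Acaa1a (0.22 ± 0.09) did not pass. Cyp4a1 was higher in every ethanol-fed array than in any pair-fed array (0.95 ± 0.14, limma adjusted p = 0.0426), with 10.99, 10.70, 10.57 and 10.75 in ethanol-fed and 10.24, 10.00, 9.75 and 9.22 in pair-fed livers. Cyp4a8 differed by 0.42 ± 0.22 and did not pass.

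Vnn1 read 8.03, 8.08, 8.11 and 8.04 in ethanol-fed livers, against 6.48, 6.71, 7.28 and 7.77 in pair-fed livers. Pdk4 read 9.84, 10.08, 9.76 and 10.16 in ethanol-fed livers, against 9.69, 8.72, 9.10 and 8.18 in pair-fed livers. The diets did not overlap for either gene, but the pair-fed arrays were spread widely and neither passed (Vnn1 1.01 ± 0.19, limma adjusted p = 0.0758; Pdk4 1.04 ± 0.26, limma adjusted p = 0.129). Ppara RNA differed by -0.15 ± 0.16 (95% interval -0.53 to 0.23), with pair differences of 0.18, 0.12, -0.05 and -0.85. Bdh1 differed by 0.30 ± 0.11 and did not pass. Ppara RNA thus did not pass in the comparison in which Ehhadh and Cyp4a1, both PPARα targets, were higher.

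These calls lie near the threshold: 0 passed once the 24 h array of pair-fed untreated rats was dropped. Dropping the 24 h array of ethanol-fed AM21 rats left 1, as did dropping the 0 h array of pair-fed untreated rats. Dropping the 24 h array of ethanol-fed untreated rats left 2, and dropping any other array left 3. All 7 genes kept a positive difference in all 21 alternatives run. Within the AM21 cohort alone and the untreated cohort alone 0 passed. Acsm5 was higher by 1.78 in the AM21 cohort and by 1.19 in the untreated cohort, and Acsf2 by 1.24 and 1.83. Endothelial markers had a median diet difference of 0.24, with 4 of 4 above 0 and 0 called. Kupffer cell markers averaged 7.94 to 8.06 on ethanol-fed arrays and 7.43 to 7.67 on pair-fed arrays, with 9 of 9 above 0 and 2 higher (Marco 0.77, Cd5l 0.71), and the part of this in the results was not tested. Hepatocyte markers had a median diet difference of 0.03 with 0 of 10 called.

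Acsm5, Crot and Ehhadh passed both tests, being lower at 24 h than at 0 h and higher with ethanol than with pair-feeding, in comparisons that use the same 8 arrays. Ehhadh differed by -1.81 with PHx and by 1.08 with ethanol, Acsm5 by -1.40 and 1.49, and Crot by -0.70 and 1.02. At 24 h the ethanol-fed Ehhadh levels (9.38 and 9.35) lay between the pair-fed levels at 24 h (8.13 and 7.83) and at 0 h (10.18 and 10.00).

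Whether the response to PHx depended on diet was tested as an interaction, which rests on 2 pools per diet. Of the 36 genes 0 passed (limma with Benjamini-Hochberg adjustment), against 0.529% of all genes. At an unadjusted p of 0.05, 9 of 36 passed (25%), against 10.9% of all genes. The interaction was above 0, that is a higher value of 24 h minus 0 h in ethanol-fed pools, for 28 genes and below 0 for 8, with all 10 mitochondrial β-oxidation genes above 0. Its median was 0.18, against 0.00 for all genes.

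Vnn1 had the smallest adjusted p, with differences between 24 h and 0 h of -0.08 and 0.04 in ethanol-fed pools and -0.80 and -1.05 in pair-fed pools (interaction 0.91 ± 0.21, limma adjusted p = 0.132). Pex11a was similar, with 0.00 and -0.28 in ethanol-fed and -0.74 and -1.19 in pair-fed pools (0.83, limma adjusted p = 0.148). Cpt2 had differences of opposite sign, 0.50 and 0.44 in ethanol-fed and -0.27 and -0.30 in pair-fed pools (0.76 ± 0.20, limma adjusted p = 0.177). Acsf2 had the signs the other way round, with -0.26 and -0.64 in ethanol-fed and 0.44 and 0.21 in pair-fed pools (-0.77 ± 0.20, limma adjusted p = 0.173).

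Ppara differed by -1.38 and -0.999 in ethanol-fed and by -1.61 and -1.96 in pair-fed pools (0.60, limma adjusted p = 0.400, 95% interval 0.05 to 1.14). Ehhadh differed by -1.47 and -1.53 in ethanol-fed and by -2.05 and -2.17 in pair-fed pools (0.61, limma adjusted p = 0.281). For Ppargc1a the differences were -0.61 and -0.78 in ethanol-fed and 0.64 and -0.14 in pair-fed pools (-0.94 ± 0.22, limma adjusted p = 0.148). These differences between diets are therefore values and not calls, and the intervals of 27 genes lay within 1 log2 unit of 0. A fit with a mean-dependent variance called 4 genes: Cpt2, Creb3l3, Ehhadh and Vnn1, and it called 2.6% of all genes.

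**Figure D3:**
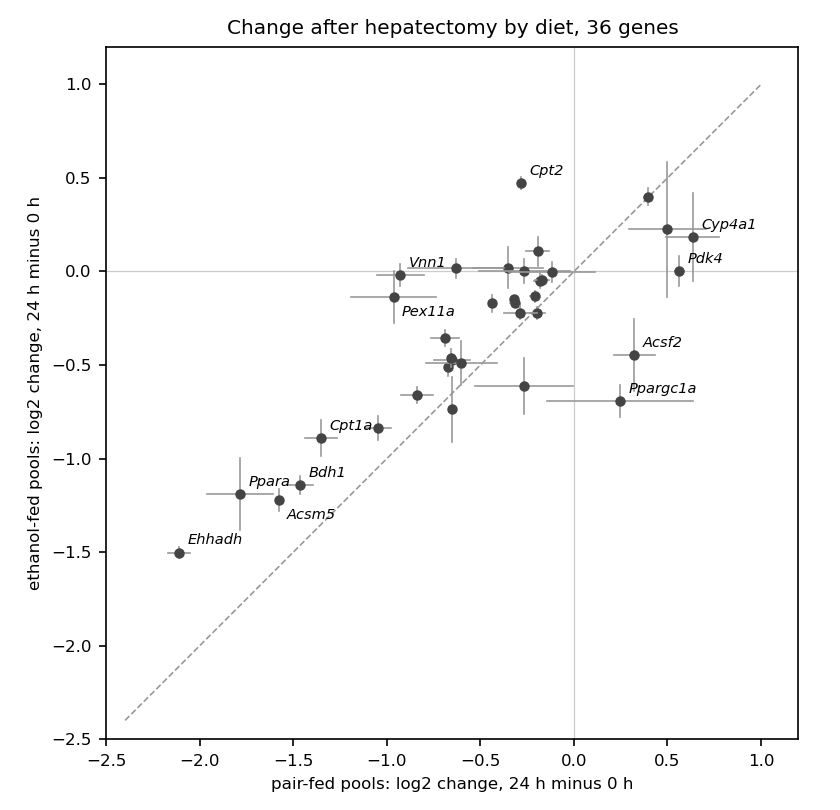
Log2 change from PHx (24 h minus 0 h) in ethanol-fed pools (y axis) against pair-fed pools (x axis) for the 36 tested genes. Points are means of 2 pools, lines run from one pool to the other, and the dashed diagonal marks equal change; 28 genes lie above it and 8 below, and none passed the interaction test.

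The AM21 comparison asked whether blocking miR-21 moved these genes, averaged over diet and time. Of the 36 genes 0 passed by limma with Benjamini-Hochberg adjustment, and over all genes the share was 0%. At an unadjusted p of 0.05, 1 gene passed (2.78%), against 6.19% of all genes. That gene was Crot, at 0.39 ± 0.10 (limma adjusted p = 0.691). Its levels were 9.15 and 8.21 at 24 h and 9.71 and 8.88 at 0 h in AM21 pools, against 8.71 and 7.70 at 24 h and 9.62 and 8.34 at 0 h in untreated pools, ethanol-fed before pair-fed. AM21 was higher in all 4 pairs for 4 of the 36 genes, Crot, Acsl1, Acadl and Acadm, and for 4.4% of all genes. The last 3 differed by 0.13 ± 0.09, 0.08 ± 0.08 and 0.04 ± 0.08. Eci2 was the 1 gene of the 36 lower in all 4 pairs (-0.16 ± 0.08), and it did not pass. The share of all genes lower in all 4 pairs is not given here, so that count cannot be set against it.

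Ppara, a reported target of miR-21, differed by 0.12 ± 0.16 (95% interval -0.26 to 0.50). AM21 and untreated levels were 7.32 and 7.18 in ethanol-fed and 7.14 and 7.06 in pair-fed livers at 24 h, and 8.70 and 8.18 in ethanol-fed and 8.76 and 9.02 in pair-fed livers at 0 h. AM21 pools were higher in the first 3 of these pairs and lower in the last. Differences over the 36 genes ran from -0.31 (Pex11a) to 0.39 (Crot), and included Acsm5 at 0.25, Pdk4 at 0.31, Cyp4a1 at 0.22, Bdh1 at 0.17, Vnn1 at -0.17, Eci1 at -0.15 and Ehhadh at 0.12. The 95% intervals of all 36 lay within 1 log2 unit of 0, and those of 24 within 0.5. RNA levels alone were measured, so an effect on protein would not be seen.

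The response to PHx did not pass a test of dependence on AM21 for any of the 36 genes, and 0% of all genes passed it. The nearest was Crat, at 0.57 ± 0.20 (limma adjusted p = 0.658), the 1 gene under an unadjusted p of 0.05, which is 2.78% against 6.95% of all genes.

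**Figure D4:**
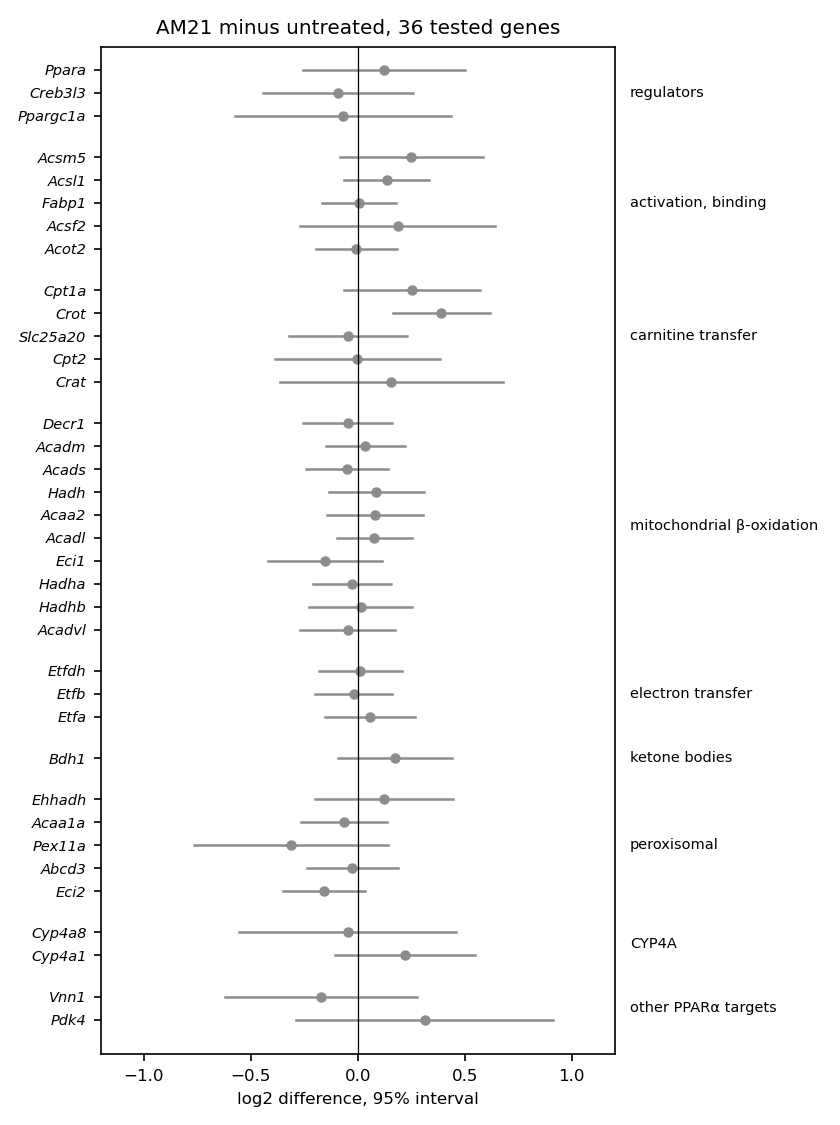
Fitted log2 difference, AM21 minus untreated, with its 95% interval (x axis) for the 36 tested genes, ordered by role. All points lie between -0.31 and 0.39, and none passed at an adjusted p of 0.05.

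A further 119 genes of the same pathways were listed, also with earlier results of these data known. Of these, 105 had a probe set and 89 were tested. With PHx 39 of the 89 were lower and 1 higher, with a median of -0.31, against 12.8% lower and 15.3% higher among all genes. Lower were 8 of 15 further mitochondrial genes, 9 of 20 peroxisomal genes, 5 of 8 ω-oxidation genes, 3 of 4 ketone genes, 8 of 15 regulators, 6 of 19 other PPARα targets and 2 of 10 uptake and activation genes. The largest differences were those of Lpin1, a phosphatidate phosphatase and coactivator of PPARα (-2.09 ± 0.29), Hacl1, the peroxisomal lyase of α-oxidation (-1.76 ± 0.19), Fgf21, the fasting hormone under PPARα (-1.30 ± 0.23), and the ω-hydroxylase Cyp4f4 (-1.06 ± 0.12). The acyl-CoA synthetase Acsm3 was the one that rose (0.78 ± 0.15). Fgf21 levels were 4.58 to 5.54 at 24 h and 5.77 to 6.92 at 0 h, lower in every pool.

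With ethanol 1 of the 89 was higher and 0 were lower, with a median of 0.18, against 0.38% higher and 0.0806% lower among all genes. It was Angptl4, the lipoprotein lipase inhibitor and PPARα target, at 8.19, 8.34, 8.80 and 8.47 in ethanol-fed and 7.49, 7.40, 7.85 and 7.40 in pair-fed livers (0.91 ± 0.12, limma adjusted p = 0.0261). It did not pass with PHx (-0.28 ± 0.12), and Fgf21 did not pass with ethanol (0.47 ± 0.22). AM21 gave 0 calls among the 89.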

How the data were processed

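Liver RNA was measured on 8 arrays, 1 for each combination of diet, AM21 and time. The deposited log2 values are RMA output. Per the submitters' processing notes, the authors used Affymetrix Expression Console, with no version stated. RMA brings the distributions of the arrays close together, which hides any shift common to most genes. Arrays have no read depth; precision is limited by there being 4 pools.

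Of 36685 probe sets, 18511 carry 1 gene symbol, 575 several and 17599 none. RefSeq gene identifiers were found for 18394, and 0 symbols needed an update. They stand for 18166 genes, of which 291 had more than 1 probe set and were represented by the brightest. A minimum mean log2 level of 5 left 8690 genes for testing. The level filter, the summary over probe sets and the centring of arrays were varied as alternatives.

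Models were fitted with lmFit and eBayes of limma 3.58.1 under R 4.3.3, using Benjamini-Hochberg adjustment over all tested genes and a threshold of 0.05. The PHx fit had the pool as a fixed block (3 residual degrees of freedom). The pairing rests on the animal identifiers in the labels, which show the same animals at both times. Diet and AM21 were fitted additively with time. The estimated correlation within pools, -0.371, was set to 0, so this fit treats 8 arrays as independent although they are 4 pools (4 residual degrees of freedom). The interactions leave 1 residual degree of freedom. The fits were tested on simulated data with independent noise on each array and no pool effect. That test therefore cannot bear on the pairing or on the correlation within pools.

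The rule for naming genes was all that passed, up to 12 by size, with 8 fixed genes and the largest difference in each role. It was not met in every comparison. Ppargc1a was left out with diet (0.41 ± 0.22) and Cpt1a with AM21 (0.25 ± 0.14), for example. In the interaction of PHx with diet, Cpt1a (0.46), Cyp4a1 (-0.45), Pdk4 (-0.56), Bdh1 (0.32) and Acadm (0.16) were left out. In that with AM21 none of the fixed genes was named. The members and lists were chosen with earlier results of these data known. Groups are single pools, so p-values measure the spread between pools and arrays. Sequences are from RefSeq tables for GRCr8.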

Additional observations from a re-analysis of the deposited data

Results flagged for a closer look

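Acsl3, a long-chain acyl-CoA synthetase that is not among the 41 genes but in the further list of uptake and activation genes, was picked out because its response to PHx differed between the diets. It changed by -0.62 and -0.68 in ethanol-fed pools and by 0.98 and 1.39 in pair-fed pools, AM21 before untreated. The interaction was -1.84 ± 0.21 (limma adjusted p = 0.0116 over all genes). In that fit 0.529% of all genes passed. With no level filter 0% of all genes passed, so the Acsl3 call was lost there. With no replicate block the share was 0.023%, and whether Acsl3 was among the genes that passed there is not given here. At 24 h its log2 levels were 6.51 and 6.68 in ethanol-fed and 6.97 and 7.09 in pair-fed livers. At 0 h they were 7.13 and 7.36 in ethanol-fed and 5.99 and 5.70 in pair-fed livers. Ethanol-fed levels were lower than pair-fed levels at 24 h and higher at 0 h. The test rests on 2 pools per diet.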

How the results depend on the processing

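Each count of the 36 genes is given with the share of all genes that passed in the same fit, which moved too. With PHx 15 passed (28.1% of all genes). The count was 14 to 21 under another filter, summary, centring or variance model and when a pool was left out, while the share of all genes ran from 10.1% with no level filter to 36.8% with centring on hepatocyte markers. Fitted with no replicate block it was 16 (31.1%). It was 8 in the AM21 cohort alone (8.35%) and 8 in the untreated cohort alone (8.93%). With diet 7 passed (0.46%), and 7 when each pool was averaged over its paired arrays (1.17%). The count was 17 with the estimated negative correlation kept (7.61%), 12 with all 2-way interactions (3.28%) and 9 with a mean-dependent variance (1.01%). It was 2 with no level filter (0.0606%), 5 at 0 h alone (1.16%) and 0 at 24 h alone (0%). Within single cohorts it was 0 for AM21 (0%) and 0 for untreated (0.0921%). Leaving out 1 array gave 0 to 3 (0% to 0.207%). The cause of these moves was not tested, except that the cohort, 0 h, 24 h and leave-out fits have fewer arrays. The interaction of PHx with diet gave 0 (0.529%), and 4 with a mean-dependent variance (2.6%). The AM21 effect and its interaction with PHx gave 0 under all alternatives run.

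Over the 36 genes, 5 comparisons and all alternatives there were 2294 values. Calls were lost in 94 of the 341 values of called results, 71 of them with diet and 23 with PHx. Results that had not passed gained a call in 42 values, 19 with diet (13 genes), 19 with PHx (9 genes) and 4 in the interaction with diet. Differences that had not passed changed sign in 103 values, 56 of them with AM21, and 0 called differences did. The cohort fits, the centring on hepatocyte markers and the diet by AM21 interaction were chosen after seeing the data. Each group is 1 pool, so the spread between animals is not known.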

Other observations

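The interaction of diet with AM21 gave 0 of the 36 genes. The smallest adjusted p was that of Pdk4 (limma adjusted p = 0.152), and 5 of the 36 were under an unadjusted p of 0.05. Over all 8690 genes, 529 were under that unadjusted p and 3 passed after adjustment.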
